A study of Homo sapiens with 6 samples.

Results

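The collagen genes were taken as the protein-coding genes whose symbol is COL, digits, A and digits, such as COL1A1, and 44 of the 58051 genes in the count files met that rule. They were measured in A172, an established human glioblastoma cell line, after stable transduction with a lentiviral pLX317 expression plasmid for either RBFOX1 or GFP, with 3 biological replicates of each. RBFOX1 is an RNA-binding protein of neurons and muscle that recognises GCAUG in RNA and acts on splicing and mRNA stability, and the GFP cells carried the same kind of virus as a control. The sources used here give neither the promoter of the plasmids nor whether each line was a clone, and p-values measure only the spread between these 3 libraries per group. The question for the collagen genes was whether their RNA differed between the RBFOX1 and the GFP cells, type by type.

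Collagens are secreted or membrane-bound proteins built of 3 chains wound into a triple helix, and each chain has its own gene. The fibrillar types (I, II, III, V, XI, XXIV and XXVII) assemble into the rope-like fibrils of skin, bone, tendon and cartilage, whereas type IV forms the sheet-like network of basement membranes and the FACIT types (such as IX, XII, XIV and XVI) sit on the surface of fibrils. Type VI makes beaded filaments around cells, type VIII makes a short-chain network under endothelium, type VII makes the fibrils that anchor epidermis to dermis, types XIII, XVII, XXIII and XXV span the plasma membrane, and types XV and XVIII, the multiplexins, sit in basement membranes. Normal brain holds little fibrillar collagen outside its vessels and coverings, and glioblastoma tissue holds more.

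The libraries held 7433414 to 23249221 counts on genes, with RBFOX1 replicate 1 the shallowest and GFP replicate 1 the deepest, while the other 4 libraries held 12128602 to 14915861. RBFOX1 itself had 4, 0 and 1 counts in the GFP libraries and 10276, 16467 and 21451 in the RBFOX1 libraries, so each library matched its label. The markers of a mesenchymal, glioma-like line were present: vimentin (VIM), nestin (NES), EGFR and CD44 had at least 1434 counts in every library, while the astrocyte markers GFAP and S100B were at or under 4 counts in each. The summed level of the 8 glioma markers went from 5671 to 5765 counts per 1000000 (CPM) in GFP down to 3800 to 3841 in RBFOX1 libraries, with SOX2 and NES higher and VIM, CD44 and OLIG2 lower. Of the listed fibroblast and pericyte markers, 4 of 6 rose and 1 fell, and their summed level ran from 109 to 114 CPM in GFP and from 197 to 209 in RBFOX1 cells. Among them decorin (DCN) stayed at or under 1 count in every library, lumican (LUM) had at most 6, and the pericyte gene RGS5 went from 86 to 196 counts up to 757 to 1550. The marker that fell, ACTA2, went from 292 to 623 counts in GFP down to 67 to 147 in RBFOX1 libraries. The endothelial list went from 1.29 to 1.49 up to 7.17 to 8.75 CPM, with 3 of 4 markers higher, and the epithelial list from 630.2 to 649 up to 2329 to 2426, with 3 of 4 higher. Of the markers called higher, VWF, CDH5, CDH1 and LUM reached the 10 counts needed for a test only through the RBFOX1 libraries. The neuron list went from 96.7 to 107 down to 48.0 to 50.1 CPM (1 of 5, SYT1, lower). The chondrocyte list went from 63.3 to 99.4 down to 37.9 to 41.2 (1 of 3, SOX9, lower), and the immune list from 0.925 to 1.84 up to 3.79 to 4.93 (1 of 2, PTPRC, higher). The part of these cell-type markers in the collagen results was not tested, and in RNA from bulk cultures fewer cells of a kind and less RNA per cell cannot be told apart.

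Most collagen genes that could be tested differed between the groups, and more rose than fell. Of the 44 genes, 36 reached a sum of 10 counts or more in the 6 libraries, and 30 of these (83.3%) passed the edgeR test with Benjamini-Hochberg adjustment at the 0.05 level. Relative to GFP cells, 21 were higher and 9 were lower. RBFOX1 cells differed broadly from GFP cells, and in the same test 46.6% of all 20536 genes passed, 23.7% higher and 22.9% lower. Differences of at least 1 on the log2 scale were found for 14 higher and 2 lower collagen genes, against 12.7% of all genes. The median log2 fold change over the 36 genes was 0.77, beside 0.0051 over all genes tested, and was 0.76, 0.73 and 0.77 when each RBFOX1 library was set alone against the GFP mean. The 6 libraries did not overlap between groups for 21 higher and 8 lower collagen genes, against 53.4% of all genes.

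A filter on low counts lets through some genes only because they are high in RBFOX1 cells, so the more strongly expressed genes were also counted apart. Of the 21 collagen genes with a mean of at least 50 normalised counts (counts divided by the library's TMM-scaled size relative to the mean size), 12 were higher, 8 lower and 1 did not pass. At that level 63.8% of all genes passed, and the median of these 21 genes was 0.32. Of the 14 genes higher by at least 1 on the log2 scale, COL5A3, COL6A5, COL8A2, COL9A2, COL9A3, COL20A1, COL21A1 and COL28A1 had a mean below that level, as had COL4A6 of the 2 lower. COL5A3 and COL28A1 reached 10 counts only through the RBFOX1 libraries. Of the 44 collagen genes, 8 were not tested. COL10A1, COL2A1, COL4A3, COL6A6 and COL23A1 had between 1 and 3 counts in their highest library, and COL9A1, COL19A1 and COL22A1 had none in any library, so these genes were not detectable at this depth.

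**Figure D1:**
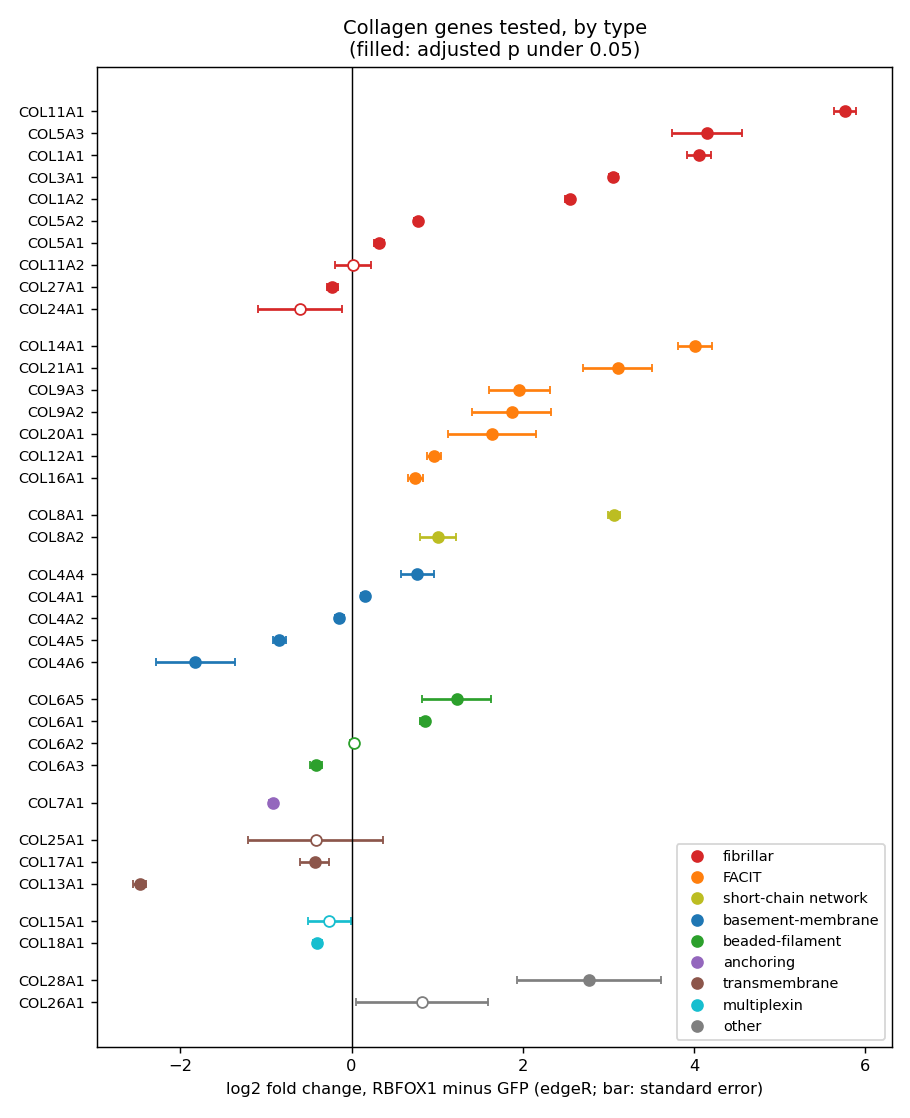
Log2 fold change of each of the 36 collagen genes tested, RBFOX1 minus GFP, grouped by collagen type. Bars are standard errors of the edgeR fit and filled points passed at an adjusted p under 0.05. The 7 FACIT genes and the 7 fibrillar genes called higher lie above 0, whereas the anchoring, transmembrane and multiplexin genes that passed lie below it.

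Genes of the fibrillar types I, III, V and XI were among those higher in RBFOX1 cells. Of the 11 fibrillar genes 10 were tested, and 7 were higher, 1 lower and 2 did not pass, with a median log2 fold change of 1.66, which was 2.56 under edgeR's stricter filter, where COL24A1 was left out. The largest rise of any collagen gene was that of COL11A1, a minor chain of cartilage fibrils on chromosome 1 from 102876467 to 103108872 (- strand) of GRCh38. It had 17.6, 8.17 and 12.6 normalised counts in the GFP libraries and 742, 774 and 756 in the RBFOX1 libraries. The gene thus went from at most 17.6 to at least 742 normalised counts, with a 59.1-fold difference of the means and a log2 fold change of 5.76 ± 0.13 (SE, n = 3 per group, edgeR adjusted p = 1.21e-17).

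COL3A1 encodes the only chain of type III collagen, the fibril of stretchable tissue and of vessel walls. COL3A1 had 4100.1, 3649 and 3852 normalised counts in the GFP libraries and 31942, 33733 and 31026 in the RBFOX1 libraries. Each RBFOX1 library lay far above the highest GFP library, with an 8.33-fold difference of the means and a log2 fold change of 3.06 ± 0.056 (SE, n = 3 per group, edgeR adjusted p = 7.87e-19). COL3A1 lies on chromosome 2 from 188974373 to 189012746 (+ strand), and its tail-to-tail neighbour COL5A2, 19151 bases away on the other strand of chromosome 2, changed far less.

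Both chains of type I collagen, the main protein of bone and tendon, rose. COL1A2 had 2228, 2151 and 2212 normalised counts in the GFP libraries and 13758, 12731 and 12100.0 in the RBFOX1 libraries. COL1A1 had 48.6, 38.5 and 53.7 normalised counts in the GFP libraries and 969, 747 and 691 in the RBFOX1 libraries. The groups stood far apart for both chains, with a log2 fold change of 2.55 ± 0.055 for COL1A2 (edgeR adjusted p = 6.16e-18) and of 4.06 ± 0.14 for COL1A1 (edgeR adjusted p = 4.64e-15). COL1A1 lies on chromosome 17 from 50184101 to 50201632 (- strand) and COL1A2 on chromosome 7 from 94394895 to 94431227 (+ strand).

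Type V collagen starts and limits the width of fibrils. COL5A2, the most abundant collagen RNA of these cells, had 28262, 26093 and 26127 normalised counts in the GFP libraries and 45446, 47344 and 45146 in the RBFOX1 libraries. It rose 1.71-fold, without overlap between the groups, with a log2 fold change of 0.78 ± 0.049 (SE, n = 3 per group, edgeR adjusted p = 5.26e-11). COL5A1 had 2547, 2325 and 2603 normalised counts in the GFP libraries and 3327, 3001 and 3036 in the RBFOX1 libraries. Its groups also did not overlap, with a smaller log2 fold change of 0.32 ± 0.055 (SE, n = 3 per group, edgeR adjusted p = 6.59e-05). COL5A3, the rarest of the 3 type V chains, went from at most 4 counts in a GFP library to 24, 38 and 34 counts in the RBFOX1 libraries (log2 fold change 4.15 ± 0.41, edgeR adjusted p = 5.56e-08).

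The remaining fibrillar genes did not share that rise. COL27A1, a cartilage fibril chain, had 733, 694 and 738 normalised counts in the GFP libraries and 657, 612 and 594 in the RBFOX1 libraries. The groups did not overlap, and COL27A1 was lower in RBFOX1 cells with a log2 fold change of -0.23 ± 0.065 (SE, n = 3 per group, edgeR adjusted p = 0.00675), a call that was lost without RBFOX1 replicate 3 (edgeR adjusted p = 0.0589). COL11A2, the partner of COL11A1 in type XI trimers, had 38.2, 32.7 and 30.6 normalised counts in the GFP libraries and 29, 42.2 and 32 in the RBFOX1 libraries, which overlapped, and did not pass (log2 fold change 0.02 ± 0.21, edgeR adjusted p = 0.981). COL24A1 was at 3.33 to 8.50 normalised counts in the 6 libraries and did not pass either (edgeR adjusted p = 0.35).

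**Figure D2:**
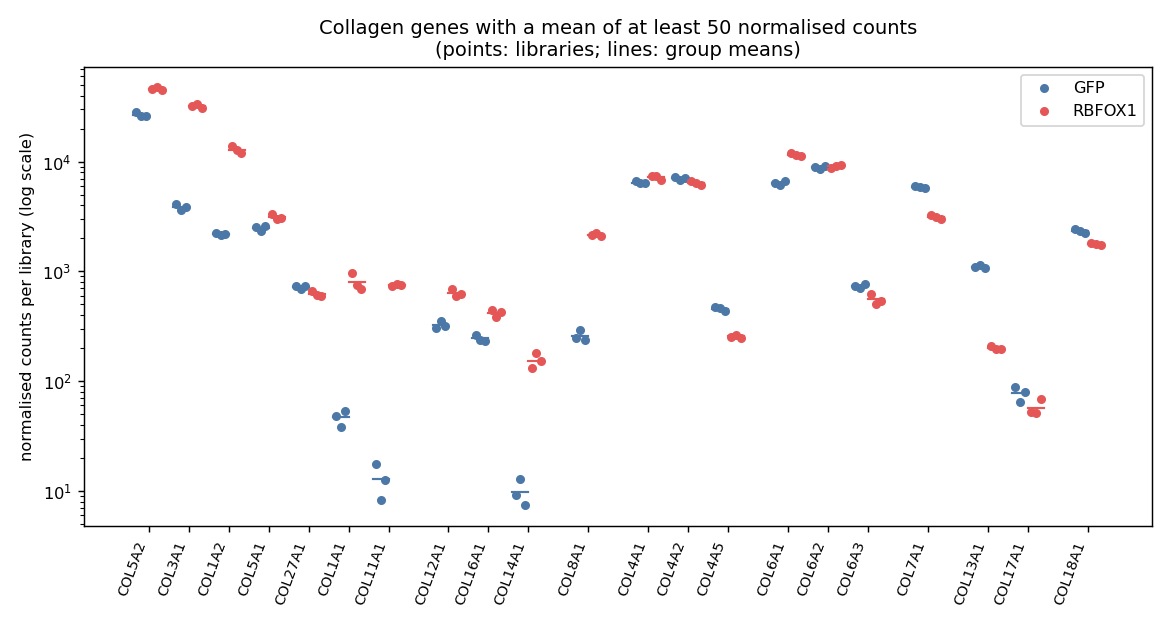
Normalised counts per library, on a log scale, of the 21 collagen genes with a mean of at least 50, grouped by type. Points are libraries (3 GFP, 3 RBFOX1) and lines group means. COL11A1 moves from 8.17 to 17.6 up to 742 to 774 normalised counts, COL6A2 stays between 8603 and 9227 in both groups, and COL13A1 falls from 1067 to 1143 down to 194.5 to 207.

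The FACIT collagens, which bind to fibrils and carry interrupted triple helices, were all called higher where they could be tested. Of 10 FACIT genes 7 were tested and 7 were higher, with a median log2 fold change of 1.87. COL14A1, which regulates fibril growth in tendon and skin, had 9.11, 12.8 and 7.37 normalised counts in the GFP libraries and 131, 179 and 152 in the RBFOX1 libraries. It went from at most 12.8 to at least 130.6 normalised counts, with a log2 fold change of 4.01 ± 0.20 (SE, n = 3 per group, edgeR adjusted p = 2.11e-12). COL12A1, found on fibrils of dense connective tissue, had 305, 356 and 315 normalised counts in the GFP libraries and 697, 594 and 616 in the RBFOX1 libraries, again without overlap (log2 fold change 0.97 ± 0.081, edgeR adjusted p = 4.33e-09). COL16A1 had 265, 238 and 231 normalised counts in the GFP libraries and 441, 381 and 424 in the RBFOX1 libraries, with a log2 fold change of 0.74 ± 0.086 (SE, n = 3 per group, edgeR adjusted p = 4.25e-07).

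The other 4 FACIT genes were rare. COL21A1, COL9A3, COL9A2 and COL20A1 had at most 31.1 normalised counts in any library and log2 fold changes of 3.11 ± 0.40, 1.96 ± 0.35, 1.87 ± 0.46 and 1.64 ± 0.51. Without GFP replicate 1 the log2 fold change of COL9A2 was 3.25 and that of COL21A1 3.85. The call of COL20A1 was lost under DESeq2 (adjusted p = 0.0982), without GFP replicate 1 (edgeR adjusted p = 0.0521) and without RBFOX1 replicate 3 (edgeR adjusted p = 0.135), and edgeR's stricter filter left it out. The type IX chain genes COL9A2 and COL9A3 rose while COL9A1, which is needed for the usual type IX trimer, had no count.

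The short-chain gene COL8A1, known from endothelium and from vessel walls, had 248, 291 and 238 normalised counts in the GFP libraries and 2124, 2235 and 2108 in the RBFOX1 libraries. The RBFOX1 libraries lay 8.33-fold higher on average, without overlap, with a log2 fold change of 3.07 ± 0.069 (SE, n = 3 per group, edgeR adjusted p = 1.16e-17). COL8A2, its partner chain, had 18.8, 19.9 and 20 normalised counts in the GFP libraries and 39.9, 37.7 and 40.2 in the RBFOX1 libraries and rose less (log2 fold change 1.01 ± 0.21, edgeR adjusted p = 0.000544).

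The basement-membrane genes moved in both directions, COL4A1 and COL4A2 by little and the other tested ones by more. Of 6 type IV genes 5 were tested, 2 higher and 3 lower, with a median log2 fold change of -0.14. COL4A1, with COL4A2 the chain of nearly every basement membrane, had 6605, 6354 and 6333 normalised counts in the GFP libraries and 7369.7, 7333 and 6835 in the RBFOX1 libraries. COL4A2 had 7211, 6768 and 7078 normalised counts in the GFP libraries and 6649.6, 6335 and 6129.8 in the RBFOX1 libraries. The groups did not overlap for either gene, but the differences were small, a log2 fold change of 0.16 ± 0.048 for COL4A1 (edgeR adjusted p = 0.0105) and of -0.14 ± 0.049 for COL4A2 (edgeR adjusted p = 0.0223). The call of COL4A2 was lost with libraries scaled by total counts only (edgeR adjusted p = 0.146) and without GFP replicate 3, RBFOX1 replicate 2 or RBFOX1 replicate 3 (edgeR adjusted p from 0.0731 to 0.154).

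The X-linked type IV genes were lower in RBFOX1 cells. COL4A5, the chain mutated in most Alport syndrome, had 470.5, 466 and 439 normalised counts in the GFP libraries and 254, 264 and 249 in the RBFOX1 libraries. The groups were well apart, with a log2 fold change of -0.84 ± 0.077 (SE, n = 3 per group, edgeR adjusted p = 1.5e-08). COL4A6, rare at 2.22 to 20.02 normalised counts, had a log2 fold change of -1.82 ± 0.46 (edgeR adjusted p = 0.00259). COL4A4, from the kidney set of type IV chains, was higher at 29.1 to 38.5 in GFP and 46.6 to 65.5 in RBFOX1 libraries (log2 fold change 0.77 ± 0.20, edgeR adjusted p = 0.00285), and its usual partner COL4A3 was not tested.

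Type VI collagen binds cells to the surrounding matrix, and its 3 main chains went 3 ways. COL6A1 had 6329, 6140.2 and 6721 normalised counts in the GFP libraries and 12086, 11386 and 11215 in the RBFOX1 libraries. COL6A2 had 8844, 8603 and 9106 normalised counts in the GFP libraries and 8728, 9184 and 9227 in the RBFOX1 libraries. COL6A3 had 732, 704 and 766 normalised counts in the GFP libraries and 624, 507 and 536 in the RBFOX1 libraries. COL6A1 was higher in each RBFOX1 library (log2 fold change 0.85 ± 0.05, edgeR adjusted p = 2.32e-11), COL6A2 overlapped between the groups and did not pass (log2 fold change 0.03 ± 0.047, edgeR adjusted p = 0.625), and COL6A3 was lower in each RBFOX1 library (log2 fold change -0.42 ± 0.074, edgeR adjusted p = 9.75e-05). The rare COL6A5 was higher at 12.8 to 14.5 against 3.50 to 9.48 normalised counts (edgeR adjusted p = 0.0157), which was lost under DESeq2 (adjusted p = 0.0903) and without GFP replicate 1 (edgeR adjusted p = 0.0704).

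The largest falls among well-expressed members outside type IV were those of COL13A1 and COL7A1. COL13A1, a transmembrane collagen of adhesion sites and of the neuromuscular junction, had 1106, 1143 and 1067 normalised counts in the GFP libraries and 207, 198 and 194 in the RBFOX1 libraries. This was the largest fall of any collagen gene, 5.54-fold, with a log2 fold change of -2.48 ± 0.072 (SE, n = 3 per group, edgeR adjusted p = 4.24e-16). COL7A1, the anchoring-fibril chain, had 6029, 5883 and 5760.4 normalised counts in the GFP libraries and 3263, 3143 and 2982 in the RBFOX1 libraries. The RBFOX1 libraries were 1.88-fold lower (log2 fold change -0.91 ± 0.049, edgeR adjusted p = 4.97e-12). COL18A1, the multiplexin whose fragment is endostatin, had 2421, 2318 and 2230.2 normalised counts in the GFP libraries and 1803, 1762 and 1734 in the RBFOX1 libraries. Its groups did not overlap (log2 fold change -0.40 ± 0.051, edgeR adjusted p = 1.59e-06).

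COL17A1, the transmembrane collagen of hemidesmosomes, had 88, 64.2 and 80.1 normalised counts in the GFP libraries and 52.6, 51.1 and 68.5 in the RBFOX1 libraries. The groups overlapped, and its call of lower (log2 fold change -0.43 ± 0.17, edgeR adjusted p = 0.0383) was lost under DESeq2 (adjusted p = 0.157), with total counts only, and without GFP replicate 1 or 3 or RBFOX1 replicate 1 or 2 (edgeR adjusted p from 0.0695 to 0.204). COL25A1 and COL15A1 did not pass (edgeR adjusted p = 0.711 and 0.431). Of the unclassed pair, COL26A1 did not pass (edgeR adjusted p = 0.417), although it did without GFP replicate 1 (edgeR adjusted p = 0.0378), and COL28A1 had 1, 0 and 1 counts in GFP and 2, 3 and 7 in RBFOX1 libraries. Every GFP library of COL28A1 was at or under 3 counts, and its RBFOX1 mean was 1.57 times the level of 3 counts per GFP library. RBFOX1 replicates 1 and 2 were at or under 3 counts too. The call of COL28A1 was lost under DESeq2 (adjusted p = 0.0815), and without RBFOX1 replicate 3 it had too few counts to be tested.

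The level of each collagen RNA was set on a per-length scale, TMM-scaled CPM per 1000 bases of all annotated exons of the gene, given as mean ± SD over 3 libraries. In GFP cells COL5A2 stood highest at 264 ± 12.2, followed by COL6A2 at 120 ± 3.40, COL6A1 at 83.2 ± 3.86, COL3A1 at 41.2 ± 2.41, COL7A1 at 38.1 ± 0.869 and COL4A1 at 31.6 ± 0.742. The spreads of COL3A1 and COL7A1 overlapped, although COL3A1 was above COL7A1 in each GFP library. In RBFOX1 cells COL5A2 remained highest at 452.5 ± 11.7, and COL3A1 moved to the next place at 344 ± 14.7, ahead of COL6A1 at 150.4 ± 6.003 and COL6A2 at 122 ± 3.73. COL1A2 reached 85.7 ± 5.58 from 14.6 ± 0.271, while COL1A1 reached only 6.42 ± 1.17 from 0.375 ± 0.0618. COL7A1 (20.2 ± 0.912) and COL5A1 (20.1 ± 1.15) then lay within their spread of each other. The order depends on the length used. Per 1000 bases of the longest annotated transcript, COL4A2 (78.4 ± 2.54) and COL4A1 (70.8 ± 1.66) stood above COL3A1 (50.7 ± 2.96) and COL7A1 (45.7 ± 1.04) in GFP cells. The first 4 places in RBFOX1 cells were by their means as above, but the spreads of COL6A1 (198 ± 7.91) and COL6A2 (189 ± 5.78) overlapped.

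Collagen RNA took a larger share of each RBFOX1 library. All 44 genes together held 0.558, 0.526 and 0.539% of gene counts in the GFP libraries and 1.05, 1.03 and 0.999% in the RBFOX1 libraries. The means of 0.541 ± 0.0163% and 1.03 ± 0.0260% (SD, n = 3) differed 1.90-fold without overlap, and the two-sided exact permutation test gave p = 0.1, the smallest that 3 against 3 allows. On the per-length scale the make-up of the pool turned toward fibrillar chains, from 50.2 ± 0.960% to 69.8 ± 0.530%. Within this share COL3A1 went from 6.07 ± 0.179% to 26.1 ± 0.570% and COL1A2 from 2.16 ± 0.0285% to 6.51 ± 0.364%, whereas COL5A2 went from 38.9 ± 0.934% to 34.4 ± 0.489% although its own level was higher.

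Shares of that pool sum to a whole, so the rise of 1 type lowers the share of the others, and each type is given with its share and with its own summed level per 1000 bases of exon. Type VI went from 30.3 ± 1.11% to 20.9 ± 0.440%, basement-membrane chains from 8.98 ± 0.0560% to 4.63 ± 0.112%, type VII from 5.62 ± 0.139% to 1.54 ± 0.0505%, transmembrane collagens from 1.14 ± 0.0427% to 0.143 ± 0.0105%, and multiplexins from 2.96 ± 0.109% to 1.16 ± 0.0280%. The short-chain genes went from 0.338 ± 0.0400% to 1.30 ± 0.0221%, and FACIT genes from 0.501 ± 0.0282% to 0.584 ± 0.0256%. The summed level of the fibrillar genes went from 340.6 ± 15.2 to 918 ± 27.7. That of the basement-membrane genes was 60.9 ± 1.47 in GFP and 61.0 ± 2.41 in RBFOX1 cells, and that of type VI was higher in each RBFOX1 library, going from 205 ± 7.35 to 275 ± 2.51, although the share of both was lower. Type VII (38.1 ± 0.869 to 20.2 ± 0.912), the transmembrane genes (7.74 ± 0.197 to 1.88 ± 0.0958) and the multiplexins (20.1 ± 0.863 to 15.3 ± 0.288) were lower in level as well, without overlap. The short-chain genes went from 2.29 ± 0.215 to 17.1 ± 0.514 and the FACIT genes from 3.40 ± 0.209 to 7.68 ± 0.271. The shares depend on the gene length used. With the longest annotated transcript in place of all exons, the fibrillar share was 41.0% in GFP and 63.7% in RBFOX1 cells, the basement-membrane share 16.3 and 8.79% and the transmembrane share 2.58 and 0.287%.

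**Figure D3:**
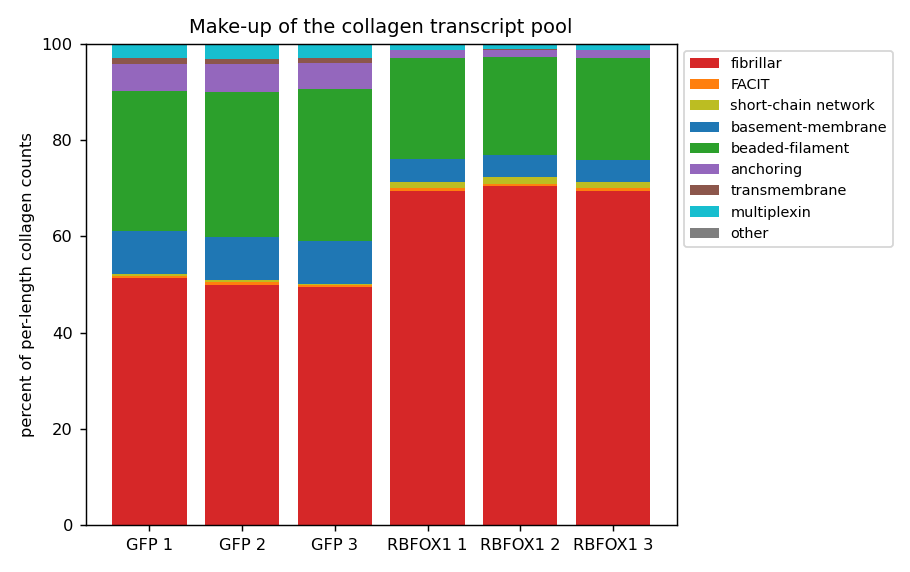
Share of each collagen type in the per-length collagen pool of each library (percent of counts divided by exon length, summed over the 44 genes). Fibrillar chains make up 49.4 to 51.2% of the bars in the 3 GFP libraries and 69.5 to 70.4% in the 3 RBFOX1 libraries.

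Count ratios were set between chains that share a trimer. Of 10 partner pairs listed, 6 had at least 10 counts of both chains in every library, and in all 6 the ratio did not overlap between groups (two-sided exact permutation p = 0.1 each, the smallest possible, and 0.1 after Benjamini-Hochberg adjustment over the 6 pairs). The counts of 53.4% of all single genes did not overlap either, and ratios of chains that share no trimer were not examined. The COL1A1 to COL1A2 ratio was 0.0218, 0.0179 and 0.0243 in the GFP and 0.0704, 0.0587 and 0.0571 in the RBFOX1 libraries, 2.92-fold higher. Type I collagen is usually made of a pair of COL1A1 chains and a COL1A2 chain, and the COL1A1 counts stayed below those of COL1A2 in all 6 libraries, also per length.

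The type VI chains also shifted against each other. The COL6A1 to COL6A2 ratio was 0.716, 0.714 and 0.738 in GFP and 1.38, 1.24 and 1.22 in RBFOX1 libraries, so the order of these chains by counts turned over. The COL6A3 to COL6A1 ratio fell 2.39-fold, from 0.116, 0.115 and 0.114 to 0.0516, 0.0446 and 0.0478. The COL8A1 to COL8A2 ratio rose 4.16-fold, from 13.2, 14.6 and 11.9 to 53.2, 59.2 and 52.5. COL4A1 to COL4A2 went from 0.916, 0.939 and 0.895 to 1.11, 1.16 and 1.12, and COL5A1 to COL5A2 fell 1.37-fold.

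**Figure D4:**
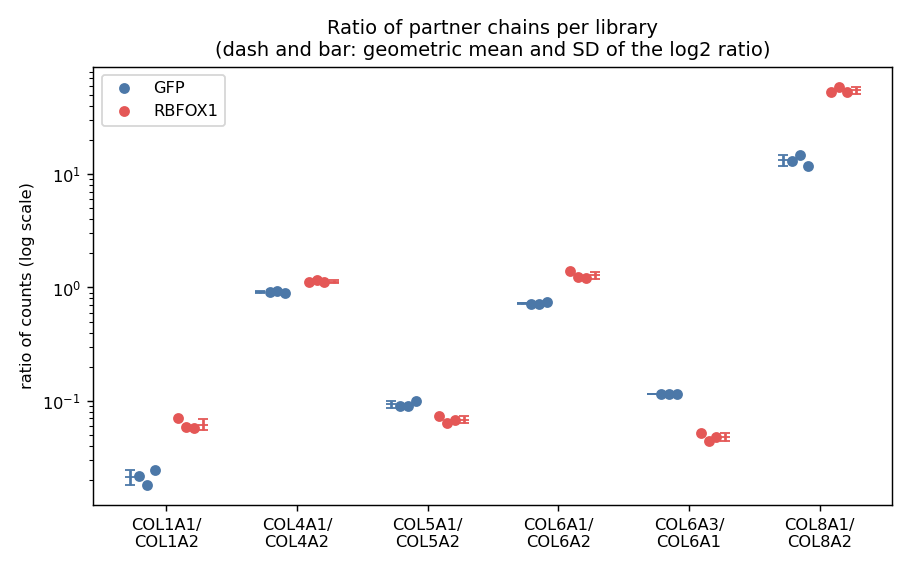
Ratio of the counts of 6 pairs of partner chains in each library, on a log scale, with the geometric mean and the SD of the log2 ratio beside the points. GFP and RBFOX1 libraries do not overlap in any pair, and the ratios COL1A1/COL1A2, COL4A1/COL4A2, COL6A1/COL6A2 and COL8A1/COL8A2 are higher in RBFOX1 cells while COL5A1/COL5A2 and COL6A3/COL6A1 are lower.

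The type IV genes lie as 3 head-to-head pairs, each pair starting from a shared stretch of DNA and read in opposite directions. The stretches are shown beside the changes of their genes: COL4A1 and COL4A2 by 0.16 ± 0.048 and -0.14 ± 0.049 on the log2 scale, and COL4A5 and COL4A6 by -0.84 ± 0.077 and -1.82 ± 0.46. COL4A6 was rare, and whether COL4A5 and COL4A6 differed in their change was not tested. From the RefSeq promoter table of GRCh38.p14, the starts of COL4A1 and COL4A2 lie 126 bases apart, those of COL4A4 and COL4A3 418 bases and those of COL4A6 and COL4A5 379 bases, and for the longer 2 the 250 bases next to the plus-strand gene are given. Capitals mark matches, on either strand, to 3 promoter words, CCAAT for the box of that name, TATAAA for the TATA box and GGGCGG for the GC box.
COL4A1 and COL4A2 at chr13:110307158-110307283 (+ strand): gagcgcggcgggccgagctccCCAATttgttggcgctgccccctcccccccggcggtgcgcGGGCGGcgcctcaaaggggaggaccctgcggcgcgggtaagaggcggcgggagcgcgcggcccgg
COL4A4 and COL4A3 at chr2:227164374-227164623 (+ strand): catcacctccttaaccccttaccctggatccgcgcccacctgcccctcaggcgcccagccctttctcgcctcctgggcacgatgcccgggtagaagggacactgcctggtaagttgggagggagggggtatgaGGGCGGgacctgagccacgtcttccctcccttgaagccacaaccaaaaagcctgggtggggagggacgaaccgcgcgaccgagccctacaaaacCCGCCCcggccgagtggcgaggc
COL4A6 and COL4A5 at chrX:108439588-108439837 (+ strand): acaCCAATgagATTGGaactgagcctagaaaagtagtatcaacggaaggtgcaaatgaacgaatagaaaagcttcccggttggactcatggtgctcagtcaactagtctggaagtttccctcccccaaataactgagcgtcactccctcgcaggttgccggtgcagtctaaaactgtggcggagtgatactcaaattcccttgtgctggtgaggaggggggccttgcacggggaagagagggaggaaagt
The COL4A1 and COL4A2 stretch was 80.2% G and C and held 1 match each to the CCAAT and the GC box. The 250 bases shown of the COL4A6 and COL4A5 stretch were 51.2% G and C and held 2 matches to the CCAAT box and none to the GC box. A further CCAAT match lay between these starts, nearer COL4A6 and outside the part shown. In the gene spans of GENCODE 44, COL4A2 starts at 110305812, so its span covers the whole COL4A1 and COL4A2 stretch. That of COL4A4 ends at 227164453, inside the stretch shown for COL4A4 and COL4A3.

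For the collagen genes with the largest rise and the largest fall, the 250 bases before the RefSeq start are given with the same capitals. The gene spans used elsewhere, from GENCODE 44, start further upstream. The span of COL11A1 covers its whole stretch, and that of COL13A1 begins inside its stretch, at 69801880.
COL11A1 at chr1:103108523-103108772 (- strand): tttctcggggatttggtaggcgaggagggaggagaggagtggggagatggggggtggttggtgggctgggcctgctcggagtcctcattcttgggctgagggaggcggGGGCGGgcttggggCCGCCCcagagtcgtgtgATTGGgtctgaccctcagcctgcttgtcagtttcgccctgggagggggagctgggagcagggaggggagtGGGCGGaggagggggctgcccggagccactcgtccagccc
COL13A1 at chr10:69801656-69801905 (+ strand): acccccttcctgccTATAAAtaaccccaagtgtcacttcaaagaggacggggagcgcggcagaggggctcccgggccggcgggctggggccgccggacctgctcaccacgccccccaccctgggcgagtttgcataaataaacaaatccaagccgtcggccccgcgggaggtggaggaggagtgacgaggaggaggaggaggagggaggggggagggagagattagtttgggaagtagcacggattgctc
The COL11A1 stretch held 3 matches to the GC box and 1 to the CCAAT box, and that of COL13A1 held 1 match to the TATA box. The table held 32 of the 44 collagen genes. In their 250 upstream bases CCAAT was found in 28.1% (33% of all 27305 genes), TATAAA in 15.6% (11.1%) and GGGCGG in 56.2% (42.3%), with a median of 65.2% G and C beside 58% in all. A match is a description of letters and not a site shown to be bound.

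RBFOX proteins bind UGCAUG in RNA, and the microRNAs of the miR-29 family are known to act on collagen mRNAs, so the annotated 3′ UTR of each canonical transcript (GENCODE 44) was searched on its own strand for TGCATG and for TGGTGCT, the match to the miR-29 seed. The family members share their seed (bases 2 to 8, in capitals), read from the RefSeq table.
hsa-miR-29a-3p: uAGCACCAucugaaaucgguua
hsa-miR-29b-3p: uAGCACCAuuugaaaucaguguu
hsa-miR-29c-3p: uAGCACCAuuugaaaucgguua
In the first 500 bases of the 3′ UTR, among genes whose 3′ UTR was at least that long, TGGTGCT was present in 11 of 31 tested collagen genes (35.5%) and in 5.16% of 10557 tested genes, while TGCATG was present in 6 of 31 (19.4%) and in 14.2%. No test was made of either share.

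The seed matches were found in collagen genes that rose and in ones that fell. Of the 36 tested genes, 22 held at least 1 match anywhere in the 3′ UTR, and of these 12 were higher, 6 lower and 4 did not pass, with a median log2 fold change of 0.24, while the 14 without were 9 higher, 3 lower and 2 neither, with a median of 0.99. In the window of 500 bases the medians were 0.16 for the 11 genes with a match and 0.91 for the others. Sites of some of these genes are given as examples, with 10 bases on either side and the match in capitals.
COL1A1 at chr17:50184573-50184579 (- strand): agggaatcacTGGTGCTatagaaattg
COL1A2 at chr7:94430913-94430919 (+ strand): agaatgttgaTGGTGCTagaagaattt
COL3A1 at chr2:189012016-189012022 (+ strand): aatgtctcaaTGGTGCTataataaata
COL3A1 at chr2:189012456-189012462 (+ strand): acgcatgttaTGGTGCTaatgtacttt
COL11A1 at chr1:102877739-102877745 (- strand): tgaatttcttTGGTGCTgtagaaaaca
COL11A1 at chr1:102877691-102877697 (- strand): ataaaaaataTGGTGCTcattctcatc
COL4A1 at chr13:110150327-110150333 (- strand): tgtcacaacaTGGTGCTacttcttctt
COL4A2 at chr13:110512219-110512225 (+ strand): agggccatttTGGTGCTtattcttaac
COL7A1 at chr3:48564323-48564329 (- strand): tccctcccctTGGTGCTagaggcttgt
COL7A1 at chr3:48564110-48564116 (- strand): tgtgatgacaTGGTGCTgattctgggg
Matches were also found in COL5A3, COL8A1, COL21A1 and COL5A2, which were higher, and in COL4A5, COL4A6, COL6A3 and COL27A1, which were lower. COL13A1, the gene with the largest fall, held none, and neither did COL14A1, COL28A1, COL9A2 and COL9A3, which were higher. The host transcript of miR-29b-2 and miR-29c, MIR29B2CHG, was looked at after the collagen values had been seen and had 114, 137 and 100.1 normalised counts in the GFP libraries and 56.2, 69.9 and 67.6 in the RBFOX1 libraries, without overlap between groups (log2 fold change -0.82 ± 0.15, edgeR adjusted p = 9.53e-05). Its part in the collagen values was not tested, and mature microRNAs were not measured in these libraries.

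TGCATG was present in the 3′ UTR of 11 of the 36 tested collagen genes, 5 higher, 3 lower and 3 that did not pass, with a median log2 fold change of 0.78, beside 0.77 for the 25 without it. The window of 500 bases gave another order, with a median of -0.42 for the 6 genes with it and 0.85 for the other 25. Sites of 5 of the 11 genes are given in the same way as examples.
COL5A2 at chr2:189033539-189033544 (- strand): gagacctacaTGCATGtcttgatatt
COL5A2 at chr2:189032708-189032713 (- strand): ttgtaatactTGCATGcttcttagac
COL8A1 at chr3:99796299-99796304 (+ strand): aaaactaagaTGCATGtttaatactc
COL12A1 at chr6:75084527-75084532 (- strand): gagagggaatTGCATGtttgtgttgt
COL13A1 at chr10:69958932-69958937 (+ strand): tcgtaatgtcTGCATGatatttgtgc
COL6A3 at chr2:237324620-237324625 (- strand): aacatcctgcTGCATGacctatcagt
COL5A2, COL8A1 and COL12A1 were higher in RBFOX1 cells and COL13A1 and COL6A3 lower. COL1A1, COL1A2, COL3A1 and COL11A1 had no TGCATG in the annotated 3′ UTR.

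A collagen chain is modified in the endoplasmic reticulum by hydroxylases and chaperones, exported, trimmed and cross-linked outside the cell, and bound by receptors, and 60 genes of these steps were listed. Of these 52 were tested, with 19 higher, 18 lower and 15 that did not pass, a median log2 fold change of 0.07. Of the 42 with a mean of at least 50 normalised counts 32 passed (76.2%), beside the 63.8% of all genes at that level. Of the 37 calls 8 were lost in at least 1 alternative, and 4 of the 15 other genes passed in at least 1. Of the 23 maturation genes 5 were higher, 10 lower and 8 neither, with a median of -0.12. Among the 10 lower calls, that of MIA2 was lost in 5 alternatives and that of FKBP10 in 3. P4HA2, a prolyl hydroxylase subunit that helps stabilise the helix, had 1859, 1829 and 1737 normalised counts in the GFP libraries and 992, 1027 and 989.8 in the RBFOX1 libraries, 1.80-fold lower without overlap (log2 fold change -0.85 ± 0.054, edgeR adjusted p = 5.99e-11). PLOD3, a lysyl hydroxylase, and FKBP14, a prolyl isomerase, had log2 fold changes of -0.85 ± 0.053 and -0.80 ± 0.071, both lower.

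P4HA1, another prolyl hydroxylase subunit, was lower (-0.53 ± 0.054 on the log2 scale). P4HB, the shared subunit of prolyl hydroxylase, had a log2 fold change of 0.14 ± 0.048 (edgeR adjusted p = 0.0258), a call of higher that was lost without GFP replicate 2, RBFOX1 replicate 2 or RBFOX1 replicate 3 (edgeR adjusted p from 0.0561 to 0.107). SERPINH1, the collagen chaperone HSP47, had 5259, 5194 and 5276 normalised counts in the GFP libraries and 5226, 5509 and 5742 in the RBFOX1 libraries, which overlapped and did not pass (log2 fold change 0.07 ± 0.048, edgeR adjusted p = 0.27), and PLOD2 did not pass (edgeR adjusted p = 0.248). The rises were led by P3H2, a prolyl 3-hydroxylase (0.79 ± 0.16), CREB3L1, a transcription factor that binds the type I promoter (0.71 ± 0.12), and P3H4 (0.43 ± 0.062).

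Processing and cross-linking enzymes trim and join the secreted chains. Of 13 tested, 9 were higher, 0 lower and 4 did not pass in the edgeR test, with a median log2 fold change of 0.37. In the same test 23.7% of all genes were higher and 22.9% lower. Of the 9 with a mean of at least 50 normalised counts 7 passed, all higher, beside 63.8% of all genes at that level. At an unadjusted p under 0.05 edgeR and DESeq2 also gave 0 lower processing genes, but without GFP replicate 1 the lysyl oxidase gene LOXL2 was lower (log2 fold change of -0.20, edgeR adjusted p = 0.000215). TLL1, called higher, had 3, 0 and 0 counts in the GFP and 20, 20 and 44 in the RBFOX1 libraries, so it reached the minimum of 10 counts only through the RBFOX1 libraries. Of the higher calls, TLL2 was lost under DESeq2 (adjusted p = 0.0624) and without GFP replicate 1, RBFOX1 replicate 1 or RBFOX1 replicate 3 (edgeR adjusted p from 0.0686 to 0.149), and PCOLCE without GFP replicate 2 or RBFOX1 replicate 1 (edgeR adjusted p = 0.0681 and 0.0514). ADAMTS14, which removes the amino-terminal propeptide of fibrillar collagens, had 7.28, 11.7 and 6.32 normalised counts in the GFP libraries and 107, 119.9 and 95.9 in the RBFOX1 libraries. It went from at most 11.7 to at least 95.9 normalised counts (log2 fold change 3.70 ± 0.22, edgeR adjusted p = 2.87e-11). LOXL3, a lysyl oxidase, and PCOLCE2, an enhancer of the carboxy-terminal proteinase, rose by 1.18 ± 0.16 and 0.98 ± 0.15 on the log2 scale, while LOX did not pass (edgeR adjusted p = 0.342).

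Among the receptors 2 rose, 5 fell and 2 did not pass, beside 23.7% higher and 22.9% lower of all genes. Of the falls, that of DDR2 (-0.15 on the log2 scale) was lost in 5 alternatives and that of ITGA1 under DESeq2. ITGA2, the collagen-binding integrin alpha 2 chain, had 15577, 15762 and 15779 normalised counts in the GFP libraries and 1908, 2121 and 2164 in the RBFOX1 libraries. It was 7.61-fold lower without overlap (log2 fold change -2.92 ± 0.055, edgeR adjusted p = 9.49e-19). ITGB1, the beta 1 chain shared by all collagen-binding integrins, was 2.14-fold lower (-1.10 ± 0.049 on the log2 scale), and MRC2, an uptake receptor for collagen fragments, was lower (-0.46 ± 0.052). ITGA11, a fibrillar collagen receptor of fibroblasts, had 21.9, 17.5 and 20 normalised counts in the GFP libraries and 176, 144 and 158 in the RBFOX1 libraries and was higher (log2 fold change 2.96 ± 0.16, edgeR adjusted p = 5.38e-12), as was ITGA10 (1.70 ± 0.15).

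Of the 14 fibril regulators 7 were tested, 3 higher, 3 lower and 1 that did not pass. Among all genes tested, 23.7% were higher and 22.9% lower. LUM, called higher, had 0, 2 and 0 counts in the GFP and 4, 5 and 6 in the RBFOX1 libraries. It thus reached 10 counts only through the RBFOX1 libraries, and edgeR's stricter filter left it out. SPARC, a matrix protein that binds collagen, had 21419, 20729 and 22364 normalised counts in the GFP libraries and 102190, 108260 and 103190 in the RBFOX1 libraries. It was higher in every RBFOX1 library, 4.86-fold (log2 fold change 2.28 ± 0.05, edgeR adjusted p = 7.03e-18). THBS1 rose by 3.02 ± 0.073 and THBS2 fell, at -0.89 ± 0.046, on the log2 scale, and FN1 (fibronectin) was lower (-0.34 ± 0.056). TNXB, at -0.37 ± 0.12, was called lower (edgeR adjusted p = 0.0154), but not under DESeq2 (adjusted p = 0.0814) or without GFP replicate 1 or RBFOX1 replicate 2 (edgeR adjusted p = 0.179 and 0.0584). The small leucine-rich proteoglycans that coat fibrils, decorin, biglycan and fibromodulin among them, had at most 6 counts in any library.

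**Figure D5:**
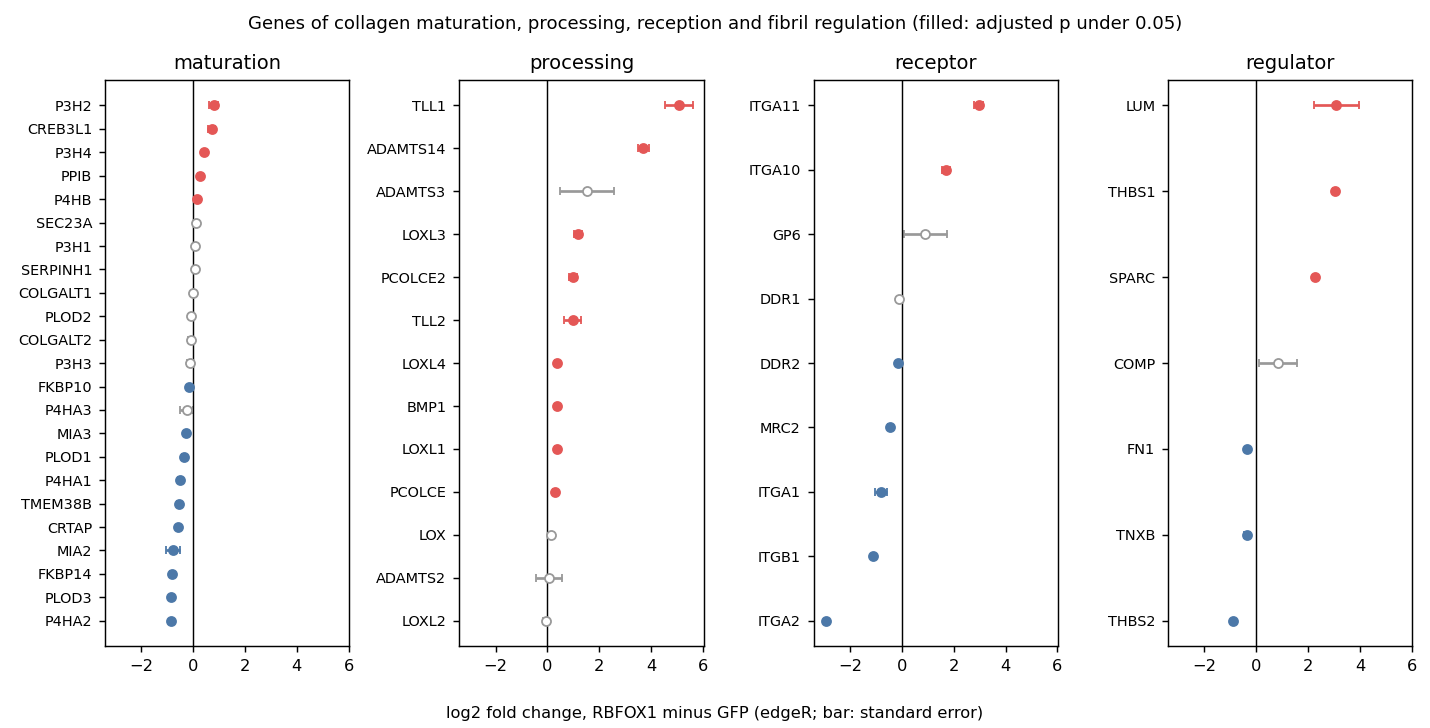
Log2 fold change, RBFOX1 minus GFP, of the 52 tested genes of collagen maturation, processing, reception and fibril regulation. Bars are standard errors of the edgeR fit, filled points passed (red higher, blue lower), and the processing panel holds 9 higher genes and none lower while the maturation panel holds 5 higher and 10 lower.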

How the data were processed

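RNA of 3 GFP and 3 RBFOX1 libraries was sequenced after rRNA depletion with a stranded kit. The authors aligned read pairs to GRCh38 with HISAT2 and counted them per Ensembl gene with HTSeq, in intersection-strict mode, and they deposited raw counts. Their DESeq2 comparison (fold changes, p-values) was also deposited and was not used. Counts were scaled by TMM and tested with edgeR 4.0.16 (R 4.3.3), quasi-likelihood F test, two-sided, genes with at least 10 counts summed over libraries, Benjamini-Hochberg over all genes tested, threshold 0.05. The procedure was tested on simulated data. DESeq2 1.42.0 was an alternative. Symbols, positions, exon lengths and 3′ UTRs came from GENCODE 44, matched by gene identifier for 98.1% of genes. Class lines stayed out of library sizes: 6.61 to 8.74% of read pairs fell on no gene, 6.89 to 9.35% on several, 16.8 to 27.0% mapped with low quality and 4.64 to 7.46% did not align. A count of 0 was read as up to 3 counts, which covers counting error only. No library pair within a group agreed within sampling noise.

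The deposited counts are named as counted on the reverse strand, and whether this matched the kit was not tested. MicroRNAs and pseudogenes on the same strand lie inside COL3A1, COL5A2, COL7A1, COL11A1 and 7 other tested members. Values per library are given for collagen genes past the threshold with a mean of at least 50 normalised counts and for 9 genes fixed by name, and from each machinery list for the 3 largest rises and falls at that level plus SERPINH1, P4HA1, P4HB, PLOD2 and LOX. Members and lists were chosen with earlier results of these data known. Alternatives were other scalings, count filters, DESeq2, a replicate block, other gene lengths and leaving out each library.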

Additional observations from a re-analysis of the deposited data

How the results depend on the processing

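Of the 36 collagen genes tested, 27 kept their direction and call in every alternative that gave a value, and 9 changed in at least 1 (COL4A2, COL6A5, COL11A2, COL17A1, COL20A1, COL25A1, COL26A1, COL27A1 and COL28A1). The counts of higher and lower collagen genes were 18 and 8 under DESeq2 and 19 and 8 under filterByExpr, which dropped 6 genes, and 19 to 21 and 7 to 9 over all alternatives but DESeq2 and the fold minimum. With a minimum of 1 on the log2 scale, 2 collagen genes were lower, and 8 machinery genes were higher and 2 lower. The collagen median log2 fold change was 0.75 with upper-quartile scaling, 0.82 with total counts only, and 0.73 to 0.82 when a replicate was left out. The basement-membrane median turned to 0.0242 under filterByExpr, which dropped COL4A6, and the fibrillar median went to 2.56 there. COL11A2, which never passed, was at -0.0098 with upper-quartile scaling and between -0.153 and 0.148 when a replicate was left out, and COL25A1 between -2.01 and 0.077, above 0 only without GFP replicate 1. Total counts only moved the median of all genes by 0.05. The labels do not say whether a shared replicate number ties a GFP and an RBFOX1 library together. Same-numbered libraries deviated with correlations of -0.16, 0.04 and -0.05, which cannot decide this, because deviations from a group mean depend on each other. The replicate block left 21 higher and 9 lower collagen genes. Depth limits the 8 genes that were not tested and the rare FACIT genes.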

Other observations

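Neighbouring noncoding and pseudogene loci with a collagen name were read apart from the 44 genes. Of 10 such loci, 8 had at most 2 counts in any library. COL6A2-DT, divergent from COL6A2, had 8, 5 and 7 counts in the GFP and 2, 1 and 5 in the RBFOX1 libraries and did not pass (edgeR adjusted p = 0.242). The type VI pseudogene COL6A4P1 had 23, 13 and 17 counts in the GFP and 4, 10 and 8 in the RBFOX1 libraries and did not pass either (edgeR adjusted p = 0.0543).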
